A study of Mus musculus with 2 samples.

Results

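The cells described here are the luminal progenitor cells of the adult mouse mammary gland, taken from a 10X Genomics Chromium library of total epithelium. A cell was counted as a member when its summed counts of the luminal keratin genes *Krt8*, *Krt18* and *Krt19* were 3 or more, those of the basal genes *Krt5*, *Krt14* and *Acta2* were under 8, and those of *Prlr*, *Stc2* and *Gpx3*, genes of hormone-receptor cells, were under 5. The members were therefore chosen by measured values of these 9 genes in the same cells, and those genes are left out of every comparison of genes below. Their summed counts are given only to describe where cells lay by the rule. The rule found 680 of 3302 cells, 20.6% of the library (exact Clopper-Pearson 95% interval 19.2 to 22.01). Of the other 2622 cells, 1204 met the keratin and basal limits but had 5 or more counts of *Prlr*, *Stc2* and *Gpx3* (the hormone-receptor gate), 1322 had 8 or more counts of the basal genes (the basal gate), and 96 had too few keratin counts for either.

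The study profiled the mammary epithelium through development, and 2 libraries of adult FVB/NJ mice, an inbred strain, were used here. The total epithelium library held Lin-CD24+ cells, that is, cells without the blood and endothelial surface proteins and with CD24. The sorted basal library held Lin-CD29hiCD24+ cells, the sort gate for basal cells, and had 4771 cells. Each library was made from the pooled glands of 4 female mice at 10 weeks of age, with no treatment given, so cells cannot be assigned to an animal and no difference below has a replicate check.

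The mammary epithelium is a bilayer of an inner luminal and an outer basal layer. Luminal cells are of 2 main kinds, hormone-sensing (mature) cells and luminal progenitors, and the paper also describes a luminal intermediate cluster between them. Hormone-sensing cells carry estrogen, progesterone and prolactin receptors. Luminal progenitors lack the steroid receptors, form colonies in culture and are regarded as the precursors of the milk-secreting alveolar cells of pregnancy. Progenitors are known for the transcription factor ELF5, which drives alveolar development, the receptor tyrosine kinase KIT, and low-level expression of milk protein genes before any pregnancy. Their secretions include iron-binding and antimicrobial proteins that protect the gland and the young.

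The milk protein genes stand at the centre of the description that follows, and the bases just before the start sites of 3 of them are shown for that reason. The casein genes lie together on mouse chromosome 5, where the 5 measured here span 266 kb from 87666208 to 87932665 in build GRCm38 (mm10). They encode the proteins that carry calcium and phosphate in milk. Below are the 250 bases before the RefSeq start sites of *Csn1s1* (alpha-S1-casein, chr5:87665958-87666207, plus strand), *Csn2* (beta-casein, chr5:87699426-87699675, minus strand) and *Csn1s2a* (an alpha-S2-casein, chr5:87774200-87774449, plus strand) in build GRCm38.p6, written in the direction of transcription, with capitals for TTCNNNGAA, the palindrome that STAT factors bind.
Csn1s1: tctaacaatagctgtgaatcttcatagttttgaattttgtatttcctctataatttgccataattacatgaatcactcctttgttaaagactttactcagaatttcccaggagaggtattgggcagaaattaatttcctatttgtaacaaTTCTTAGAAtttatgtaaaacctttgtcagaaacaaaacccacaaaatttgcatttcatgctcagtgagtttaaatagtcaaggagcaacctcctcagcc
Csn2: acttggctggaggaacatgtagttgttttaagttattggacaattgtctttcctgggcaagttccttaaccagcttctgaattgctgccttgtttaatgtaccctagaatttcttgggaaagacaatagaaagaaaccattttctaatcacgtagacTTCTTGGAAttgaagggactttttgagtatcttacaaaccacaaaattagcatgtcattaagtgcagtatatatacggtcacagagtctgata
Csn1s2a: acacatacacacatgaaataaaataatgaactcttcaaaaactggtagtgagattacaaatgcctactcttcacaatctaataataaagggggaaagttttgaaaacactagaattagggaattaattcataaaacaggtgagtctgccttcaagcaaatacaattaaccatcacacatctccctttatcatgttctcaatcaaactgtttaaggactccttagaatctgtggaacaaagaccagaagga
The motif began 100 bases before the start site of *Csn1s1* and 93 bases before that of *Csn2*, and had no match in the window of *Csn1s2a*. Of the 8 genes listed as caseins and whey proteins, 6 had an entry in the RefSeq table, and 3 of the 6 windows held the motif, *Glycam1* being the third. Searched on both strands, which read the same for this palindrome, it was present in 1940 of 27025 promoter windows of that length (7.18%) and in 16 of the 259 found for all genes more than 2-fold higher in the members (6.18%). *Glycam1* itself had no count in the library. A match of letters does not show that a factor was bound.

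The members carried the markers of luminal progenitors. *Trf*, which encodes the iron carrier transferrin, was at 47387 CPM (a gene's summed counts in a group, scaled to the same fixed total in every group, of which 47387 CPM is 4.74%) in the members and 3512 in the other cells, a ratio of 13.5 (95% interval 13.3 to 13.7). *Csn3* (kappa-casein) was at 7105 against 521 CPM, *Elf5* at 405 against 33.9, *Aldh1a3*, a retinaldehyde dehydrogenase, at 117 against 8.93, and *Kit* at 53.9 against 5.36. The ratios were 13.6 (13.1 to 14.1), 11.9 (10.3 to 13.8), 13.1 (9.92 to 17.6) and 10.1 (6.91 to 14.9). *Aldh1a3* was not confined to the members. In the 96 cells with too few keratin counts it was at 141 CPM, above its level in the members. There *Trf* and *Csn3* were at 769 and 123 CPM, and *Elf5* and *Kit* had no count. All intervals of levels and ratios given here are exact and cover the error of counting molecules only, not the spread between cells or between mice. The markers were part of the choice of the label, so these values describe the cells and test nothing.

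Most members had several of these 5 markers at a time. At least 2 were detected in 622 members (91.5%), against 184 cells of the hormone-receptor gate (15.3%) and 61 of the basal gate (4.61%). No marker was detected in 22 members, and all 5 in 11. Detection followed the level of the gene: 96.6% of members had a count of *Trf*, 87.5% of *Csn3*, 54.7% of *Elf5*, 16.5% of *Aldh1a3* and 13.1% of *Kit*. In basal-gate cells the shares were 55.3%, 5.22%, 1.89%, 0.151% and 0.454%. The median total per cell was 2546 counts in the members, 3337.5 in the hormone-receptor gate and 1829 in the basal gate. With every cell reduced to 1000 counts at random, 87.7% of the members deep enough still had at least 2 markers, against 10.2% and 3.08%.

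**Figure D1:**
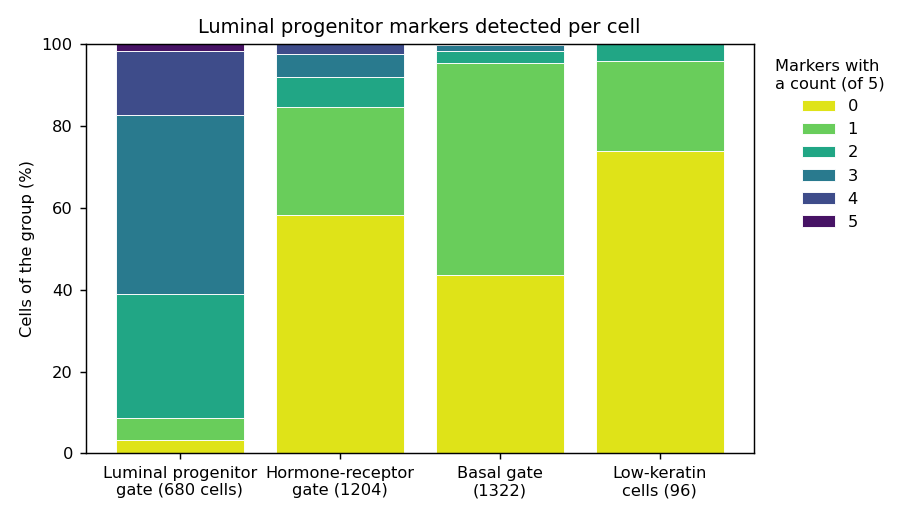
Stacked bars show the percentage of cells (vertical axis) of each gate in which 0 to 5 of the markers *Elf5*, *Kit*, *Csn3*, *Trf* and *Aldh1a3* had at least 1 count. In the luminal progenitor gate 91.5% of cells had 2 or more, in the hormone-receptor gate 15.3% and in the basal gate 4.61%.

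The limits of the rule were crossed by few cells. The members had a median of 61 keratin counts, and only 6 had 3 or 4, while 28 cells with 1 or 2 met the other limits. Those 6 members had 19331 CPM of *Trf* and the 28 cells outside had 1658. At the basal limit, 7 members with 4 to 7 counts had 14509 CPM of *Trf* and 2782 CPM of *Cxcl14*, a chemokine gene of basal cells, while 7 cells just outside, with 8 to 11 counts, had 11712 and 3939. At the hormone-receptor limit, 32 members with 3 or 4 counts had 39304 CPM of *Trf* and 389 CPM of *Cited1*, a transcriptional co-regulator of hormone-sensing cells, whereas 33 cells outside with 5 or 6 counts had 17804 and 1615. *Trf* was thus high on either side of the basal and hormone-receptor limits, whereas it was lower outside the keratin limit.

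Between 804 and 9621 counts were found in a member, 1946869 in all, and the median member had 1013.5 genes detected. The whole library had 9227651 counts and 802 to 12967 per cell. Mitochondrial genes gave 0.182% of the members' counts. The libraries shared 28 cell barcodes, 8 of them in members. Scrublet, a doublet caller, marked 41 cells of the library, 1 of which was a member, and 77 members had a total over 2 times the library median. The genes of other cell types were low in the members, but not all at 0. Of the 8 immune markers 7 were at 0, as were all 5 adipocyte markers and all 5 erythroid markers. The 8 fibroblast markers summed to 77.0 CPM in the members against 16184 in the low-keratin cells, the 8 endothelial markers to 7.70 against 2549, the 6 pericyte markers to 51.4 against 2337 and the 6 Schwann cell markers to 33.9 against 1075. The pericyte and Schwann sums were above those of the hormone-receptor gate, 3.48 and 13.7 CPM.

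Across all genes the members were compared with the other 2622 cells of the library. A gene was called when the whole interval of its ratio lay above 2 or below 1/2, among 9121 genes with at least 50 counts in the library. By this rule 366 genes (4.01%) were higher and 960 (10.5%) lower in the members. Counts of called genes in the lists below are to be read against these shares. The median gene had a log2 ratio of -0.37. With ratios centred on the median gene, a setting chosen after seeing the data, 530 genes were higher and 680 lower, which moved the share of calls that were higher from 27.6% to 43.8%. Values below are uncentred and can be read against that shift. Because the rule removed cells with basal and hormone-receptor transcripts, genes that travel with those transcripts had to be lower, and nothing is read from the counts as such.

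The most abundant transcripts of the members were secreted proteins. After the gate genes were left out, *Trf* and *Spp1*, the gene of the phosphoprotein osteopontin, took 9.18% of all counts in the members. *Spp1* was at 44437 CPM against 3426 in the other cells. *Plet1*, a surface protein of epithelial progenitors, was at 9238 against 857 CPM, and *Itm2b*, a membrane protein of wide expression, at 10936 against 3482 CPM. The long noncoding RNA *Malat1* was at 9391 against 10698 CPM, below the other cells.

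Among the 20 genes with the largest ratio were kallikreins, mucins, milk proteins and secreted signals. *Klk10*, a kallikrein-related protease, had the largest ratio, 36.2 (15.6 to 103), but rested on 58 counts in 2.21% of members. Its neighbour on chromosome 7, *Klk11*, had a ratio of 20.2 (12.1 to 35.4). Reads from related kallikrein genes may have been dropped in counting, which makes such values uncertain. Among genes with over 1000 counts in the members the largest ratios were those of *Csn1s1* (21.97, 20.6 to 23.4) and *Csn2* (19.3, 18.5 to 20.2). Under the alternative ways of processing, these ratios ranged more widely than the intervals, from 14.7 to 302 for *Csn1s1* and from 12.4 to 321 for *Csn2*. The other 16 genes were *Muc20*, *Hhipl2*, *Enpp3*, *Clic6*, *Wfdc18*, *Slc13a2*, *Timd2*, *Wfdc3*, *Cck*, *Anxa8*, *Muc1*, *Csn1s2a*, *Ltf*, *Edn1*, *Lalba* and *Cxcl2*, with ratios from 21.9 down to 14.9.

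Several of these genes encode signals or transporters. *Cck*, the peptide hormone cholecystokinin, was at 244 CPM (223 to 267) in the members and 14.6 in the other cells. *Edn1*, the vasoconstrictor and contractile peptide endothelin-1, was at 66.8 against 4.40 CPM. *Clic6*, a chloride intracellular channel family member, was at 351 against 19.2 CPM and was detected in 50.7% of members. All 3 were at least 10-fold above the other cells by the lower end of their intervals.

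**Figure D2:**
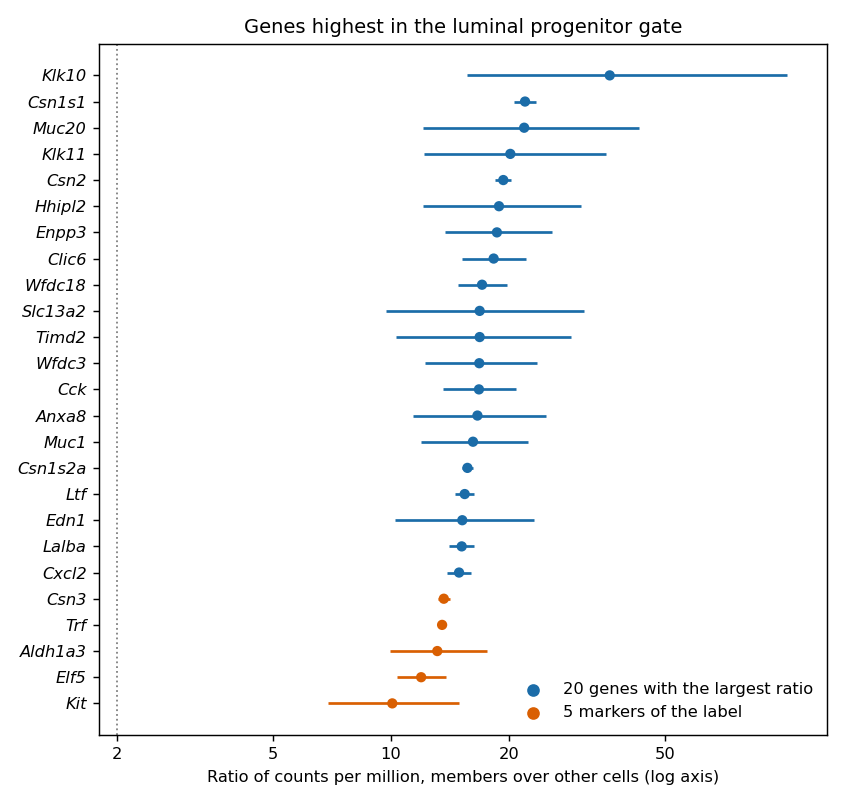
Points show the ratio of CPM in the members to CPM in the other cells on a log axis for the 20 genes with the largest ratio (blue) and the 5 markers (orange), with exact 95% counting intervals as lines. *Klk10* is at 36.2 with a wide interval, the caseins between 13.6 and 21.97 with narrow ones, and *Kit* lowest at 10.1.

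All casein and whey genes that passed the count filter were called higher. These were 5 of the 8 listed (*Csn1s1*, *Csn2*, *Csn1s2a*, *Csn3* and *Lalba*), and they were also the 5 called higher than both other gates. Together the 8 genes made up 26803 CPM in the members, 2256 in the hormone-receptor gate and 805 in the basal gate. *Csn1s2a* was the highest at 8615 CPM, followed by *Csn3*, *Csn2* at 5832, *Csn1s1* at 3422 and *Lalba*, the whey protein that makes lactose synthase, at 1818. The remaining 3 were scarce. *Wap*, whey acidic protein, had 18 counts, *Csn1s2b* had 4 and *Glycam1* none in the members, and the other cells had none of any of them. Reads shared by *Csn1s2a* and its close relative *Csn1s2b* may be missing from these counts.

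Caseins were detected in very different shares of the members. *Csn3* had a count in 87.5% of members, *Lalba* in 57.9%, *Csn1s1* in 50.7%, *Csn1s2a* in 36.6% and *Csn2* in 33.2%. *Csn1s2a* had the highest level of the 5 yet was found in fewer cells than *Csn3*. In the basal gate the casein levels were 2.63% to 3.48% of those in the members, and 0.445% to 0.921% when the 24 basal-gate cells that clustered with members were left out. The part that free RNA or doublets play in those counts was not tested.

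Many genes of milk fat were higher in the members. Of 19 tested genes of the list, 11 were higher and 2 lower, with a median log2 ratio of 2.61, against -0.37 over all genes. The higher ones included proteins of the milk fat globule and its droplets: *Btn1a1* (butyrophilin, ratio 14.7, 12.8 to 16.9), *Muc15* (13.8), *Muc1* (16.2), *Xdh* (xanthine oxidoreductase, log2 ratio 3.28), *Mfge8* (lactadherin, 3.27) and *Plin2*, which coats lipid droplets (2.86). *Cidea*, which fuses droplets, had a ratio of 14.1 (8.73 to 23.7). The other higher genes were *Cel*, *Folr1*, *Lpin1* and *Scd1*, with log2 ratios from 2.24 to 3.44. The lower genes were *Dgat2*, an enzyme of triglyceride synthesis, and *Scd2*, a fatty acid desaturase, with log2 ratios of -2.88 and -3.71. *Fasn*, *Acaca* and *Acly*, the enzymes of new fatty acid synthesis, and *Srebf1*, which regulates them, met neither limit and had log2 ratios from -0.35 to 0.88.

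Secreted defence and carrier genes were high as a group, with 5 clear exceptions. Of 19 tested, 13 were higher and 5 lower, with a median log2 ratio of 2.36, and the whole list gave 109157 CPM in the members against 13996 in the hormone-receptor gate and 12162 in the basal gate. Most of that sum was 2 genes, *Trf* at 47387 and *Spp1* at 44437 CPM. Lactoferrin (*Ltf*), which withholds iron from bacteria, was at 3163 against 205 CPM. *Lcn2*, which captures bacterial iron carriers, was at 5737 against 1027 CPM. It was also detected in 82.5% of basal-gate cells, at 30.4% of the members' level. *Fcgbp*, a mucus protein, and the protease inhibitor relatives *Wfdc18* and *Wfdc3* had log2 ratios of 3.40, 4.09 and 4.07.

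Among the exceptions, *Wfdc2* and *Slpi* share the whey acidic protein domain with *Wfdc18* and *Wfdc3*. *Wfdc2* was at 26.7 CPM in the members and 1072 in the hormone-receptor gate, and the protease inhibitor *Slpi* at 95.02 in the members and 3496 in the basal gate. The antimicrobial genes *Reg3g* and *Defb1* and the macrophage lysozyme *Lyz2* were at 0.514 to 3.08 CPM in the members and were also called lower. *Lyz1*, *S100a9*, *Saa3*, *Camp* and *Lpo* were at 0 in the members, and *Saa3*, *S100a9* and *Lpo* had no count in the library.

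Of 23 tested transcription factors associated with luminal progenitors, 9 were higher and 1 lower, against 4.01% and 10.5% of all genes. *Hey1*, a Notch effector, had the largest ratio, 13.6 (10.9996 to 16.9), at 209 CPM in the members. It was followed by *Elf5*, *Foxi1*, a forkhead factor of ion-transporting cells (11.3, 7.58 to 17.3), *Ehf*, *Sox10* and *Elf3*. *Elf5*, *Ehf* and *Elf3* are epithelial ETS factors, and had log2 ratios of 3.58, 3.01 and 1.66. *Tbx3*, a factor of hormone-sensing cells, was lower at 2.05 against 17.03 CPM. The factors *Gata3*, *Stat5a* and *Runx1* met neither limit, with log2 ratios of -0.73, -0.86 and -1.003, all below the median gene. The letters AGGAAG, the core that ETS factors bind, were present on either strand of 10 of the 19 promoter windows found for the 20 leading genes (52.6%) and in 29.2% of all windows. They were in 34.7% of the 259 windows found for all genes called higher. This is a description of letters on a set chosen from these data.

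Most genes of the list of progenitor surface and enzyme markers were also higher. Of 11 tested surface and enzyme genes 8 were higher and 1 lower. *Cd14*, the lipopolysaccharide co-receptor, was at 2849 against 237 CPM (12.04, 11.4 to 12.7) and was found in 85.9% of members. The potassium channel *Kcnn4* and *Tspan8*, a tetraspanin, had log2 ratios of 3.68 and 3.34, while those of *Cd55*, an inhibitor of complement, and *Cd44* were 1.87 and 1.796. *Prom2* was the gene called lower, at 5.65 against 59.7 CPM. *Cd24a*, whose protein the sort used, was at 607 against 1072 CPM, and *Epcam* at 5664 against 3282 CPM, neither past the limits.

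Inflammatory signals formed another set. Of 18 tested genes of NF-kappaB and chemokine signalling, 9 were higher and 2 lower, against 4.01% and 10.5% of all genes. The median log2 ratio of the list was 1.17. The neutrophil chemokines *Cxcl2* and *Cxcl1* were at 1994 against 134 and 2168 against 330 CPM. *Csf3*, which calls up granulocytes, had a ratio of 10.5 (9.66 to 11.5) and *Tnf* one of 11.6 (8.48 to 15.97). The feedback inhibitors *Nfkbia*, *Tnfaip3* and *Nfkbiz* were also higher, with log2 ratios of 1.31, 2.25 and 1.41, whereas the subunit genes *Nfkb1*, *Rela*, *Relb* and *Rel* were past neither limit. *Il33* and *Icam1* were lower, with log2 ratios of -2.94 and -2.27.

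Receptor and Notch genes were called in either direction or not at all, against 4.01% higher and 10.5% lower over all genes. The counts of these calls were not read as a result. The list of growth factor and cytokine receptors did not hold the marker *Kit*, which was called higher. None of its 16 tested genes was called higher and 3 were lower: *Fgfr2*, *Ryk* and *Il13ra1*, with ratios of 0.141, 0.323 and 0.345. *Met*, the hepatocyte growth factor receptor, had a ratio of 2.69 (1.86 to 3.87), and *Gfra1* had no count in the members. Of 9 tested Notch genes, *Hey1* and the receptor *Notch1* (3.16, 2.33 to 4.29) were higher. The ligand *Dll1* and the glycosyltransferase *Lfng* were lower, *Dll1* being at 9.25 CPM in the members and 386 in the basal gate. The ligand *Jag1* had no count in the members and was at least 3.39-fold lower, with the floor set at 3 counts over the group. *Jag2* and *Mfng* were also at 0 in the members.

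Junction and transport genes differed member by member rather than as groups. Of 15 tight junction and polarity genes, 3 were higher and 2 lower, against 4.01% and 10.5% of all genes. The higher ones were *Cldn1* with a ratio of 10.3, *Tjp3* with 2.51 and *Cldn3* with a log2 ratio of 1.10. The lower ones were *Cldn6* with a ratio of 0.0482 and *Cldn8* with 0.374. Of 12 genes of ion and water transport, 4 were higher. They were *Clic6*, the nucleoside transporter *Slc28a3* at 927 against 68.8 CPM, and the proton pump subunits *Atp6v1b1*, at 480 against 35.4 CPM, and *Atp6v1c2*. The sodium-potassium-chloride transporter *Slc12a2* was lower at 22.6 against 219 CPM, as was the water channel *Aqp5*. The median log2 ratio of the transport list was 0.24, but -0.056 without cells over 2 times the library median and -0.32 with every cell at 1000 counts, so it had no stable direction.

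**Figure D3:**
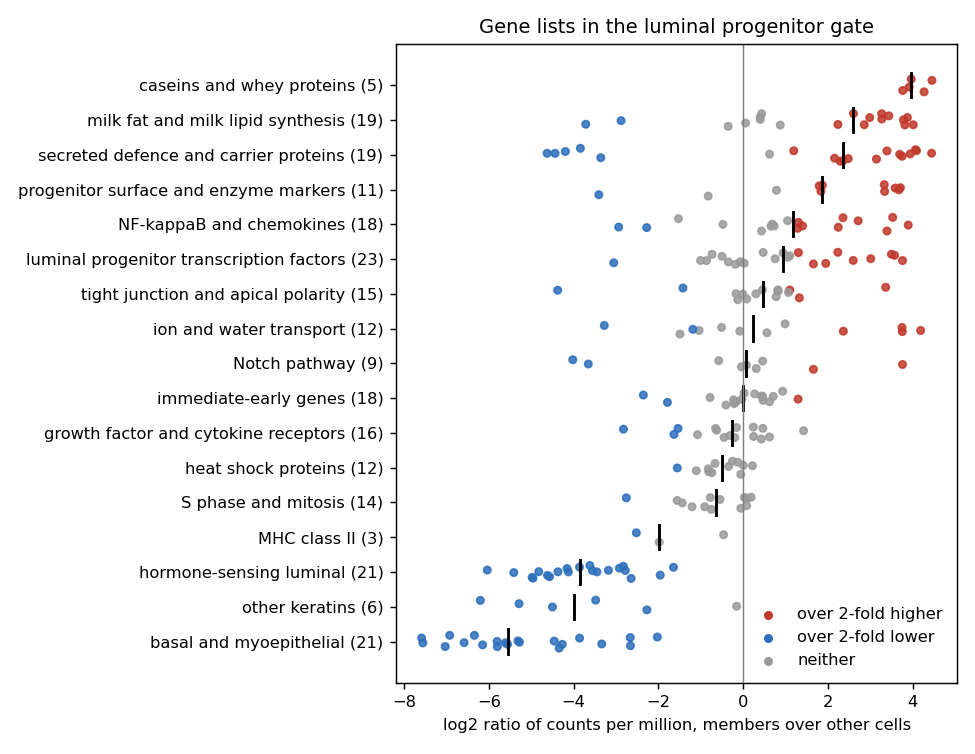
Every point is a tested gene of a list, placed by its log2 ratio of CPM in members over other cells, in red or blue where called over 2-fold higher or lower and grey otherwise, with black bars for list medians and the number of tested genes in brackets. Casein genes lie at the right (median 3.97), and basal genes at the left (median -5.56).

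Genes of basal and hormone-sensing cells were low, as the rule made them. All 21 tested hormone-sensing genes and all 21 tested basal genes were called lower, with median log2 ratios of -3.86 and -5.56, and 5 of 6 keratins outside the gate were lower too. The hormone-sensing list summed to 880 CPM in the members and 28467 in the hormone-receptor gate, and the basal list to 1041 CPM against 38732 in the basal gate. *Areg* (amphiregulin, the growth factor downstream of the estrogen receptor) was at 56.5 CPM against 2920 in the hormone-receptor gate, and *Tph1* and *Cxcl15* at 8.73 and 13.9 against 946 and 965 CPM. *Esr1* and *Pgr*, the estrogen and progesterone receptors, had a count in 1.18% and 0.294% of members. *Tnfsf11* (RANKL) and *Calca* had no count in the members and were at least 6.86-fold and 6.24-fold lower.

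The genes with the smallest ratios were high in the basal gate or in the hormone-receptor gate. *Actg2*, *Igfbp2*, *Mylk*, *Il17b*, *Myl9* and *Spon2* were at 255 to 2723 CPM in the basal gate and at most 8.73 CPM in the members. The ratio to all other cells was 0.00521 (0.000132 to 0.0291) for the smooth muscle actin *Actg2* and 0.00824 (0.00480 to 0.0132) for the myosin light chain *Myl9*. *Ctsj*, a cathepsin, was at 199 CPM in the hormone-receptor gate and at 1.03 CPM in the members. *Snai2*, the basal transcription factor, had no count in the members and was at least 6.33-fold lower.

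Against each of the other gates alone, 271 genes (2.97%) were called higher in the members than in both, and 153 (1.68%) lower than in both. The casein list had 5 of 5 tested genes among the 271, milk fat 11 of 19, secreted defence 12 of 19 and the surface list 7 of 11. The ratios of the 5 markers were smaller against the hormone-receptor gate, at 7.26 for *Kit* to 13.3 for *Aldh1a3*, than against the basal gate, at 20.6 for *Elf5* to 109 for *Aldh1a3*. Much of the signal in the hormone-receptor gate came from few cells. In a clustering that left out the gate genes, 159 cells of that gate fell in cluster 8 and held 85.2% of its *Trf* counts, 84.3% of its *Csn3* counts and 89.6% of its *Elf5* counts. They had a median of 5333 counts per cell and 31 counts of *Prlr*, *Stc2* and *Gpx3*, and Scrublet marked 1 of them. Their *Trf* level was 19425 CPM, against 816 in the other 1045 cells of the gate. Against other cells outside cluster 8 and the 3 clusters that held most members, a setting chosen after seeing the data, the ratio was 98.0 for *Trf*, 345 for *Csn3*, 133 for *Elf5* and 519 for *Csn1s2a*. The paper describes a luminal intermediate cluster in adult total epithelium and proposes that it is a transit state between progenitor and mature luminal cells. Whether the cells of cluster 8 belong to that cluster or are doublets was not tested further.

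Against the 4.01% higher and 10.5% lower over all genes, the calls among proliferation, stress and early-response genes were not read as a result. Of 14 tested S phase and mitosis genes, 13 were past neither limit and 1, *Cdc20*, was lower at 2.05 against 13.9 CPM. *Mki67*, the proliferation antigen, had no count in 680 members, which allows a share of up to 0.441% of cells with a count (3 cells of 680), and was found in 2 cells of the hormone-receptor gate and 3 of the basal gate. *Bub1* and *Plk1* had no count in the members either. Among 18 immediate-early genes, *Ier3* was higher (2.46, 2.37 to 2.56) and *Klf2* and *Egr2* were lower (0.290 and 0.196). *Fos* was at 5542 against 7336 CPM, past neither limit. Of 12 heat shock genes only *Hsph1* was called, at a ratio of 0.341. Of the MHC class II list, *H2-DMa* was lower and *H2-Eb1* and *Ciita* were at 0 in the members.

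The members varied widely among themselves. With each cell reduced to 1000 counts, which left out 30 shallower members, 650 members were compared by the index of dispersion, the variance of a gene over its mean, which is near 1 when cells differ only by sampling. It was 1.5 or more for 199 of 1395 genes with a mean of at least 0.1 count, and the median was 1.14. *Spp1* reached 83.3: its median was 8 counts, its 10th and 90th percentiles were 0 and 114, and its highest value was 359 of 1000. *Csn1s2a* (61.8), *Csn2* (36.3), *Fos* (30.6), *Hp* (haptoglobin, 16.8), *Cxcl2* (16.02) and *Apod* (a lipocalin, 15.7) followed. *Trf*, by contrast, was spread more evenly for its level, with a median of 43, 10th and 90th percentiles of 13 and 79, and an index of 14.1.

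*Acta1*, *Ckm* and *Gsn* also ranked in the first 10, at 119, 63.7 and 14.99. *Acta1* and *Ckm* are genes of skeletal muscle fibres, were at 0 in 99.4% and 99.5% of the 650 members, and reached 145 and 74 counts of 1000 in the highest cell. Of all members, 1 lay in a cluster of 8 cells led by muscle genes. With the 31 members outside the 3 main clusters left out, a setting chosen after seeing the data, the index was 1.03 for *Gsn*, 13.1 for *Ckm*, 62.1 for *Acta1* and 82.4 for *Spp1*.

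The sums of whole gene lists also varied from cell to cell. Per 1000 counts, the casein and whey list had a median of 9 and a highest value of 342, and the secreted list a median of 77 and a highest value of 419. The immediate-early list had a median of 26 and reached 278, and the NF-kappaB and chemokine list had a median of 6 and reached 79. Across the 650 cells of this pool, Spearman's rho was 0.54 between the casein and the secreted lists, -0.20 between the casein and the immediate-early lists and -0.24 between the secreted and the NF-kappaB lists. *Csn1s2a* and *Csn2* had a rho of 0.71, and *Spp1* and *Trf* one of 0.53. The casein sum also had a rho of 0.40 with the total of the cell before thinning, and the immediate-early sum one of -0.27. These are descriptions of cells that share a library, in counts that add to a fixed total, and the list sums share that total.

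**Figure D4:**
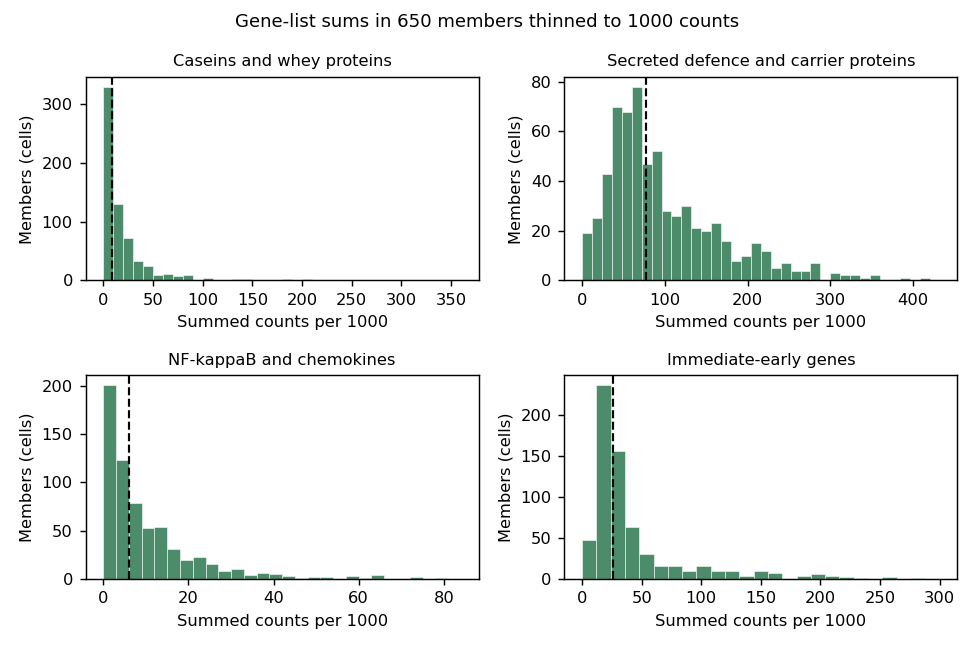
Histograms show the number of members (vertical axis) by their summed counts per 1000 for 4 gene lists in 650 members, with dashed lines at the medians of 9, 77, 6 and 26. The casein and immediate-early sums have long tails, up to 342 and 278.

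Clustering that left out the gate, mitochondrial and ribosomal genes placed 649 members (95.4%) in 3 of 15 clusters. Cluster 4 held 320 members and was led by *Apod*, *Csn2*, *Lao1* and *Csn1s2a*. Cluster 7 held 204 and was led by *Cxcl2*, *Csf3*, *Ltf* and *Cytip*. Cluster 9 held 125 and was led by *Txnip*, *Ehf*, *Ltf* and *Cited2*. The clusters were made from these genes, so their differences describe how the members sort and test nothing. Only 38 cells outside the gate fell in the 3 clusters, 24 of the basal gate and 11 of the hormone-receptor gate among them. Scrublet marked 13 of the 24.

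The 3 groups of members differed in the levels of some markers and of whole gene lists. *Elf5* was at 439 (401 to 480), 342 (294 to 395) and 469 (389.99 to 558) CPM in clusters 4, 7 and 9, *Trf* at 57520, 33137 and 43426 CPM and *Csn3* at 8755, 4888 and 6166 CPM, and milk fat genes summed to 10310, 10924 and 11975 CPM. Caseins summed to 39222, 7797 and 19281 CPM, and *Spp1* was at 70589, 2520 and 29862 CPM. Cluster 7 was lowest in both. It had the highest NF-kappaB and chemokine sum, 16543 CPM against 6612 and 6679, and the highest *Kit* level, 89.7 (66.2 to 119) CPM against 33.9 (23.8 to 46.7) in cluster 4 and 74.96 (45.8 to 116) in cluster 9, whose interval overlapped both. *Aldh1a3* was at 207 (171 to 249.9) CPM in cluster 7, 66.8 (52.4 to 84.0) in cluster 4 and 154 (110 to 208) in cluster 9.

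Cluster 9 stood apart by early-response genes. They summed to 111973 CPM there, against 23152 in cluster 4 and 27964 in cluster 7, and *Fos* was at 31627 against 1256 and 1587 CPM. The stress chaperone *Hspa1a* was at 1900 against 93.3 and 116 CPM, although reads shared with its near-identical copy *Hspa1b* may be missing. The members of cluster 9 had a median of 1850 counts, below 3038 in cluster 4 and 2410.5 in cluster 7, and mitochondrial genes took 0.277% of their counts against 0.153% and 0.171%. The part of dissociation and of depth in these values was not tested.

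The 31 members in other clusters did not carry progenitor markers as a group. At least 2 of the 5 markers were detected in 3 of them. *Elf5* and *Kit* had no count, *Trf* was at 1700 CPM, and the hormone-sensing list summed to 18757 CPM against 353 to 409 in the 3 main clusters. The fibroblast markers summed to 2235 CPM and the pericyte markers to 1012. The basal list summed to 7067 CPM, against 819 to 970. Their median total was 1268 counts, and 17 of them lay in cluster 0, where 432 of 449 cells were of the hormone-receptor gate. They had met the rule with a median of 3 counts of *Prlr*, *Stc2* and *Gpx3*. Without these 31 cells 369 genes were higher and 1031 lower.

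**Figure D5:**
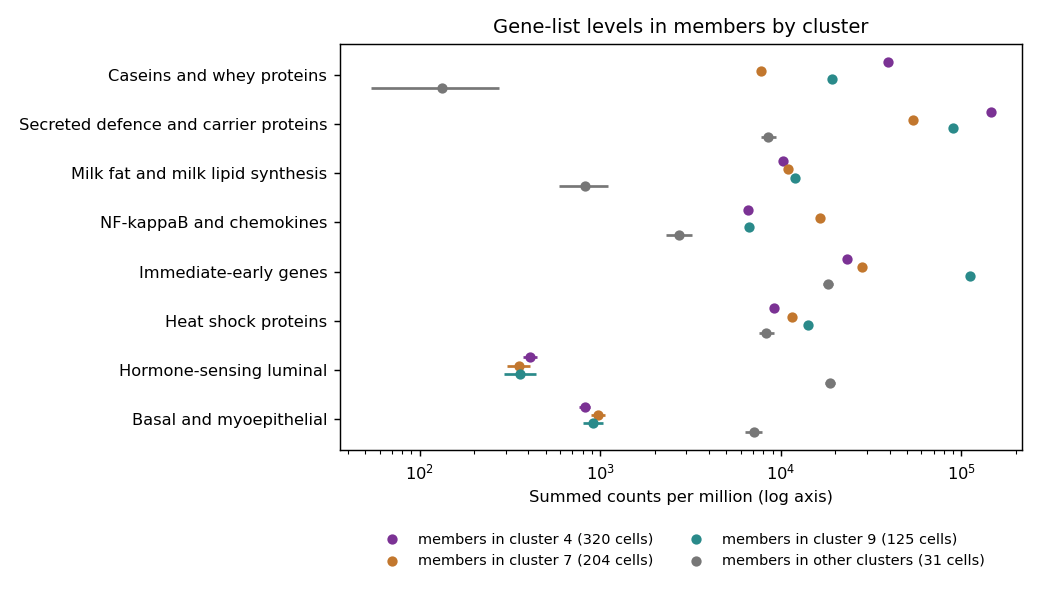
Points show the summed CPM of 8 gene lists (log axis) in members of clusters 4, 7 and 9 and in the 31 members elsewhere, with 95% counting intervals as lines. Casein genes range from 134 CPM in the members elsewhere to 39222 in cluster 4, and the hormone-sensing list is highest in the members elsewhere, at 18757.

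The same rule was applied to the sorted basal library, which played no part in the choice of genes above. It found 150 of 4771 cells (3.14%, 2.67 to 3.68) with 91107 counts and a median of 522 counts per cell. At that depth the basal limit is easier to meet, and only 35 of the 150 had at least 2 of the 5 markers. The 150 cells kept basal transcripts, with *Cxcl14* at 2492 CPM against 3854 in the rest of that library and *Mylk* at 648 against 1089. Several progenitor genes were higher in them. *Trf* was at 36144 against 1720 CPM (ratio 21.0, 20.1 to 22.004), *Csn3* at 1273 against 16.3 (78.3, 54.0 to 116), *Spp1* at 8935 against 107 and *Elf5* at 362 against 5.42 (66.8, 34.2 to 138). Genes low in the members of total epithelium were higher too: *Cited1* had a ratio of 9.87 (3.16 to 26.6) and *Krt7* one of 7.29 (4.07 to 12.4) in the sorted basal library, against log2 ratios of -4.37 and -2.27 in total epithelium. *Kit* rested on 2 counts in the 150 cells and 1 in the rest, and *Aldh1a3* on none and 5.

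Of the 20 genes with the largest ratio in total epithelium, 17 had a ratio above 1 in the sorted basal library and 14 had an interval wholly above 1. *Klk10* and *Klk11* had no count there, and *Anxa8* had 3, none of them in the gate. Here the rule again set cells with luminal keratin counts against sorted basal cells. Shares of higher genes were thus partly built in by the rule and do not test what the cells are. Of the 366 genes higher in total epithelium, 238 had at least 20 counts in the sorted basal library. Of these, 194 (81.5%) had a ratio above 1 and 116 (48.7%) an interval wholly above 1, against 40.9% and 7.09% of all 7896 tested genes with at least 20 counts there. *Wfdc18*, *Csn1s1* and *Lalba* were among the highest, with ratios of 114 (45.9 to 339), 77.6 (45.4 to 138) and 48.9 (24.6 to 101). Casein levels in these cells, 615 CPM for *Csn1s1* and 692 for *Csn2*, were below the 3422 and 5832 CPM of the members in total epithelium, although the libraries differed in depth and sort, and their levels were not compared further.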

How the data were processed

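Cells of 2 10X Genomics Chromium libraries, 1 of total epithelium and 1 of sorted basal cells, were analysed. The authors deposited raw counts of unique molecular identifiers per gene and cell for 27998 genes. The submitters' processing notes name Cell Ranger 1.2.1, while the study's methods name a later version, and the build was mm10. The samples were grouped by their labels, which give 1 library per group, so no test across samples was possible and no p-value is given.

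The counts of a gate's cells were summed and expressed as CPM. Ratios have exact conditional binomial (Clopper-Pearson) intervals and levels exact Poisson intervals, both at 95%. Genes needed 50 counts in the library, and a count of 0 was set to a floor of 3 counts over the group where a bound is given. Depth was 802 to 12967 counts per cell in total epithelium and 137 to 1946 in the sorted basal library, and it limits what could be detected for genes of low level. Cells were thinned to 1000 counts to compare shares and variation. Cells were clustered with scanpy 1.11.5 (Leiden, leidenalg 0.10.2, resolution 1, 30 components, 15 neighbours, 2000 variable genes), and doublets were marked with Scrublet but kept. Intervals and ratios were tested on simulated data. Other software was Python 3.11.15, numpy 2.4.6, scipy 1.17.1, pandas 2.3.3 and matplotlib 3.10.9. Gene positions came from GENCODE and promoter windows from RefSeq.

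The members and the 24 gene lists were chosen with earlier results of these data known. Named were the 5 markers, the 20 largest and 8 smallest ratios, up to 4 genes per list by the size of the log2 ratio, listed genes at 0 in the members, and the 10 most variable genes. Of the genes with the smallest ratios, 1 is not reported here. Other listed genes, and the most abundant genes, were named after their values were seen. The alternatives were other gate limits, removal of doublets or deep cells, thinning, other count minimums, other totals and other weights.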

Additional observations from a re-analysis of the deposited data

How the results depend on the processing

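The gate held 603 cells without those over 2 times the library median and 622 when at least 2 of the 5 markers were required. With cells thinned to 1000 counts, 222 genes were higher and 542 lower, and with a minimum of 200 counts in the library 226 and 555, with fewer genes tested (6257 and 5207 against 9121). Of the 222 genes, 212 were also among the 366 of the full counts. Centred on the median gene, 530 were higher and 680 lower, and under the remaining alternatives the counts ranged from 334 to 473 higher and from 892 to 1078 lower. In 1325 values of the 99 named genes, no ratio called higher or lower changed direction, although 267 left the counting interval of the reported ratio. Named genes past neither limit were not checked for a change of direction. The median of the ion and water transport list was -0.056 without cells over 2 times the library median and -0.32 with thinned cells, the cause of which was not tested. At 2000 counts per cell 402 genes had an index of dispersion of at least 1.5, among more genes and fewer cells. In the sorted basal library 35 of the 150 cells had at least 2 markers. The medians of the growth factor receptor, Notch, immediate-early, S phase and mitosis, and Schwann lists had either sign across the alternatives. No paired analysis was possible because each group has 1 library, and the spread between mice is unknown.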
